A study of Mus musculus with 6 samples.

Results

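The genes described here build and supply the cilium: the intraflagellar transport (IFT) trains, the BBSome and the transition zone at the base of the cilium. Members were chosen by gene symbol (the Ift, Bbs and Tctn families and a fixed set of partner genes) among probe sets that the platform annotation ties to exactly 1 gene. The choice gave 69 probe sets of 43 genes, of 45101 probe sets on the array, 34945 of which carry 1 symbol. A probe set was used where 3 or more arrays reached the 40th percentile of their own array, which 60 of the 69 did, and they cover 42 genes. No member gene passed through the arrays of 1 sort alone, although a Kif3b probe set that does not stand for the gene did. Tmem67, a membrane protein of the transition zone, did not pass and was not tested.

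A cilium is assembled from its tip, so every building block has to be carried there. IFT trains, built of IFT-A and IFT-B, are pulled outward by kinesin-II, whose motor subunits are Kif3a and Kif3b, and carried back by cytoplasmic dynein-2. The BBSome is an adaptor that moves membrane proteins out of the cilium along these trains, and the transition zone is the gate between the cilium and the cell body. In the mouse node these same parts serve motile cilia that drive leftward fluid flow, while most other cells of the embryo at this stage carry a single immotile primary cilium, through which hedgehog signals pass.

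The 6 arrays compared GFP-positive with GFP-negative cells sorted from the same embryo pools. All embryos were Noto-GFP heterozygotes of embryonic day 8.5 (median somite number 6), of mixed sex and a 129S3;ICR background, so both sorted groups carry the reporter. Noto encodes a homeobox transcription factor active in the node and in the notochord that forms from it. The tissue was the region behind the first somites, pooled from 23, 39 and 52 embryos for pools 1, 2 and 3 and dissociated in 1% trypsin, and each pool gave 1 array of GFP-positive cells (about 2600, 4300 and 6600 cells) and 1 of GFP-negative cells. The GFP-negative sort holds all the other cells of that tissue, and in both sorts a difference in the share of ciliated cells cannot be told apart from a difference in RNA per cell.

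Values are intensities on a linear scale that share 1 overall level, a trimmed mean of 150 on every array, with array medians between 19.8 and 28. The sort followed its label: 12 node and notochord markers were measured, of which GFP-positive cells had 10 higher and 0 lower, with a summed intensity of 13028 to 15615 in GFP-positive and 1919 to 2856 in GFP-negative cells. Noto itself was not analysed here. Summed markers of the blood and vessel lineages were lower on every GFP-positive array: 7 primitive erythroid markers summed to 332 to 5751 in GFP-positive and 12140 to 28471 in GFP-negative cells, and 6 endothelial markers to 166 to 385 in GFP-positive and 1434 to 2068 in GFP-negative cells. Those of lateral and intermediate mesoderm (8 genes) summed to 333 to 537 in GFP-positive and 1977 to 4515 in GFP-negative cells. In the other direction, 8 paraxial mesoderm markers summed to 4068 to 4153 in GFP-positive and 1168 to 1448 in GFP-negative cells. The 8 gut endoderm markers summed to 1660 to 3890 in GFP-positive and 675 to 1428 in GFP-negative cells. Of the gut endoderm markers 3 passed as higher and 0 as lower, and Hnf4a was lower on every GFP-positive array than on any GFP-negative one. The sums of 7 neural plate markers overlapped, at 1177 to 1367 in GFP-positive and 866 to 1380 in GFP-negative cells. Single neural plate markers went both ways: with the pool as a block 1 was higher (Irx3) and 2 were lower (Pax6 and Olig3). The part of these cell types in the values of the cilium genes was not tested. Both arrays of pool 1 stood apart in RNA quality: the 3′ over 5′ signal ratio of the Gapdh control was 14 on GFP-positive array 1 and 15.4 on GFP-negative array 1, and 1.6 to 2.22 on the other 4 arrays.

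Some of these genes share a promoter element. Regulatory factor X (RFX) proteins bind the X-box, an inverted repeat, and are known regulators of cilium genes. RefSeq promoters (GRCm38.p6, from 250 bases before to 50 bases after the gene start) were matched for 38 of the 43 genes. An X-box was searched on both strands as the letters GTTNCC, then 2 or 3 bases of any kind, then GNAAC. It lay in the promoters of 8 of the 38 genes (21.1%), against 461 of 27025 genes in the whole promoter table (1.71%). The left arm of the repeat alone, GTTGCC, which on 1 strand or the other overlaps all 8 of these X-boxes, lay in 19 of 38 (50%), against 14.1% of all genes in the table. Both are matches of letters, described without a test, and the letters were chosen after several spellings had been counted. The other 30 promoters hold no X-box in these letters, though some of them hold the left arm. The 8 X-boxes are shown because the element is more frequent among these promoters than in the table, each with 8 bases on either side where the window allows, 5′ to 3′ on the gene's strand, with the X-box in capitals.
Ift57 (chr16:49699226-49699254, + strand): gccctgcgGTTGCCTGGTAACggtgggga
Kif17 (chr4:138262170-138262198, + strand): tcacggagGTTGCCCAGCAACggcgaacg
Tctn3 (chr19:40612351-40612379, − strand): tcccagcgGTTGCCAGGTAACgggaacca
Mks1 (chr11:87853183-87853212, + strand): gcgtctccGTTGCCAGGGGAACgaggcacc
Bbs7 (chr3:36613489-36613518, − strand): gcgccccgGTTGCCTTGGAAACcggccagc
B9d2 (chr7:25680788-25680817, + strand): aacctgctGTTGCCCCAGCAACagtcgggg
Ahi1 (chr10:20952560-20952589, + strand): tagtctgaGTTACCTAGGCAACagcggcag
Tctn1 (chr5:122264411-122264432, − strand): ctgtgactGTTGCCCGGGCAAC

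The X-box begins 60 bases before the gene start in Ift57 and 24 before it in Mks1, and 16 bases after it in B9d2. Whole promoters are shown for Ift57 and Cep290, the members with the highest and the lowest fold change, with X-boxes and left arms in capitals. The Ift57 promoter holds a second GTTGCC, 87 bases before the gene start; the Cep290 promoter holds neither the X-box nor the left arm in these letters.
Ift57 (chr16:49699044-49699343, + strand): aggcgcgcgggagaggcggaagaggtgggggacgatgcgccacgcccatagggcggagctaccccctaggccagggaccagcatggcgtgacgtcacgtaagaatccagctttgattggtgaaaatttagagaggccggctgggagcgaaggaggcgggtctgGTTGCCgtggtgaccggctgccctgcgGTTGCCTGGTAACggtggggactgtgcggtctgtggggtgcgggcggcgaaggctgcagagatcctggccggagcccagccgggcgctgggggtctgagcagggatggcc
Cep290 (chr10:100487332-100487631, + strand): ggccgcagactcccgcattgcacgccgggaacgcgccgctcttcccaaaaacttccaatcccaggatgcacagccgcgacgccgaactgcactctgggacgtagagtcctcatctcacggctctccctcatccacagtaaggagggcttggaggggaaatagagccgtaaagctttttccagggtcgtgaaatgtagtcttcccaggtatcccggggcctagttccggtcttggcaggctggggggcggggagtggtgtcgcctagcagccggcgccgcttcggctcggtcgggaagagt

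None of the IFT, BBSome and transition zone genes passed the test between the sorts in the fit without the pool. With the pool as a block 4 passed (9.52%, beside 13.8% of all genes). Fold changes are given as log2 of GFP-positive over GFP-negative on intensities with 32 added, so they understate the change of dim genes, and a gene passes at a Benjamini-Hochberg adjusted p under 0.05 in limma over all 12628 genes. Of the 42 genes tested, 0 were higher and 0 lower without the pool, where 2.95% of all genes were higher and 1.71% lower (4.66% in all). At an unadjusted p under 0.05, 9 members had a positive and 2 a negative fold change, together 26.2% of the members beside 22.7% of all genes (12.7% positive and 10% negative). The GFP-positive array was the higher one in 3 of 3 pools for 18 members and the lower one for 6, beside 28.4% and 24.9% of all genes. The members' fold changes ran from -1.76 to 1.04 with a median of 0.22, beside 0.01 for all genes, and 25 of 42 were above 0 (59.5%, beside 51.1% of all genes). For 29 of the 42 the 95% interval lay inside a 2-fold change either way (69%, beside 67.5% of all genes). For the other 13 a change of that size was not resolved by 3 arrays a group. The bound is on intensities with 32 added, so it is not a bound on the intensities of dim genes. Kif17, with mean intensities of 13.4 in GFP-positive and 28.2 in GFP-negative cells, is among the 29.

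Same-numbered arrays share an embryo pool, and with the pool as a block 3 members passed as higher and 1 as lower: Dync2li1, Ift57 and Ift27 were higher and Cep290 was lower. That is 9.52% of the members, beside 13.8% of all genes in the same fit (7.76% higher and 5.99% lower). Taken singly, 0 of the 60 member probe sets passed, beside 1.81% of all probe sets, and 3 passed with the block, beside 9.86%. The count also turned on pool 1. Without both arrays of pool 1, 10 members were higher and 5 lower, beside 19.9% and 17.5% of all genes (37.4% in all). Without GFP-negative array 1 alone 5 of the 42 were higher and 2 lower, where 22% of all genes passed in either direction. Without GFP-positive array 1 only Dync2li1 passed, beside 4.28% of all genes. Leaving out any other single array, or pool 2 or 3, gave 0 in either direction, beside 0.0396% to 1.38% of all genes.

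**Figure D1:**
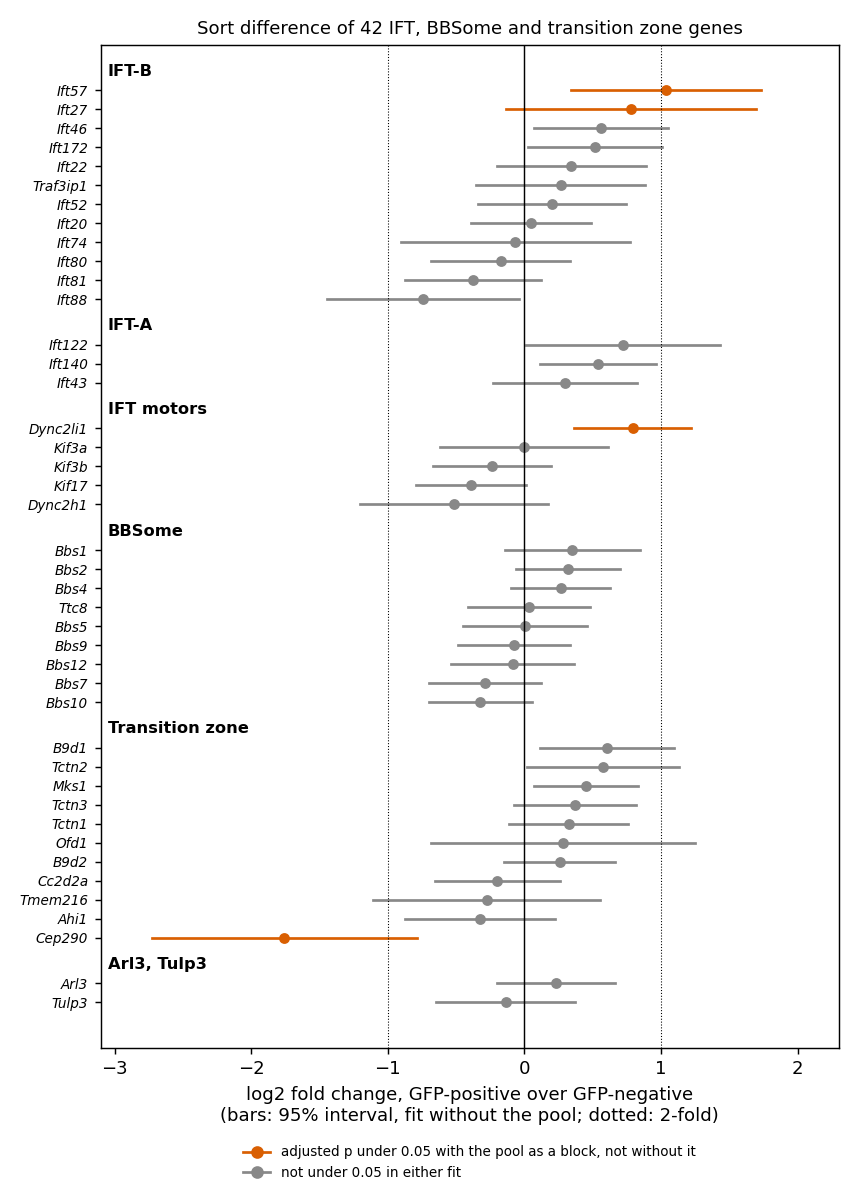
Log2 fold change of GFP-positive over GFP-negative arrays (horizontal axis) for the 42 tested members, in 6 role groups down the page. Points are estimates of the fit without the pool and bars their 95% intervals (3 arrays a group), dotted lines mark a 2-fold change, and orange marks the 4 genes that pass with the pool as a block and not in the fit drawn; Cep290 stands alone at -1.76.

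The motors held the member with the smallest adjusted p. Dync2li1, the light intermediate chain of the dynein-2 motor that returns IFT trains to the cell body, had intensities of 174, 213 and 225 on GFP-positive arrays 1, 2 and 3, against 105, 107 and 99.1 on GFP-negative arrays 1, 2 and 3. All 3 GFP-positive arrays lay above all 3 GFP-negative ones, as they do for 15.6% of all genes. The log2 fold change was 0.79 ± 0.19 (SE, 3 arrays a group), with adjusted p = 0.0526 in limma and 0.0243 with the pool as a block; over 8 other settings, the block included, adjusted p ran from 0.0243 to 0.0836. Dync2h1, the heavy chain of the same motor, had an estimate of the opposite sign. Its intensities were 139.8, 67 and 54.9 in GFP-positive cells, against 92, 155.5 and 154.5 in GFP-negative cells, so the GFP-positive array was the higher one in pool 1 and the lower one in pools 2 and 3. The within-pool log2 differences were 0.47, -0.92 and -1.10 and the fold change was -0.52 ± 0.30 (adjusted p = 0.34); without pool 1 it was -1.01 (adjusted p = 0.00187).

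The kinesin motors showed no difference that passed. Kif3a, a motor subunit of kinesin-II, had 220.5, 149 and 128 on GFP-positive arrays, against 232, 130.5 and 139 on GFP-negative arrays, a log2 fold change of -0.0026 ± 0.27 (95% interval -0.62 to 0.62). Its 3 other probe sets had fold changes between -0.69 and 0.38, 2 of them opposite in sign to the one that stands for the gene, so the direction of Kif3a is not settled by this array. Kif3b, its partner subunit, had -0.24 ± 0.19, with 1 of 3 other probe sets opposite in sign at 0.49. That probe set entered the test only through GFP-positive arrays, so the filter favoured its positive sign. It had 28.2, 13.5 and 22.5 in GFP-positive cells, against 4.1, 1.2 and 12.5 in GFP-negative cells. Kif17, a motor of the homodimeric kinesin-2 class, had intensities of 12.2 to 14.7 in GFP-positive and 15.9 to 39.7 in GFP-negative cells. All 3 GFP-positive values lie below the medians of their arrays, and GFP-positive array 1 and GFP-negative array 3 are under the 40th percentile of theirs. Of the 5 motor genes, 1 had a positive fold change, and the group's median was -0.24.

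**Figure D2:**
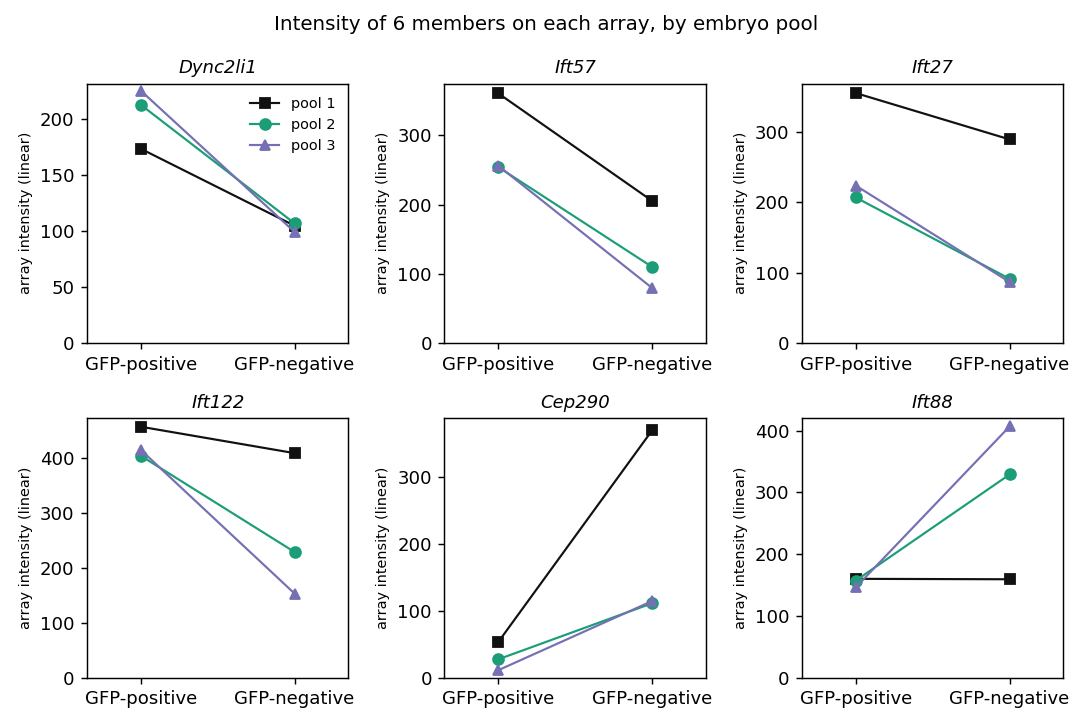
Array intensity on a linear scale (vertical axis) of 6 members in GFP-positive (left) and GFP-negative (right) cells, with a line joining the 2 arrays of each embryo pool. Dync2li1, Ift57, Ift27 and Ift122 slope down to the right in all 3 pools and Cep290 slopes up in all 3, while pool 1 (black squares) is nearly flat for Ift88.

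IFT-B held 12 of the tested genes, with fold changes between -0.74 and 1.04 (median 0.23), 8 of them above 0. Ift57, a subunit of the peripheral part of the train, had 361, 254 and 256 in GFP-positive cells, against 205, 109.9 and 79.4 in GFP-negative cells. Every GFP-positive array was above every GFP-negative array, and pool 1 was the brightest pool in both sorts. The fold change was 1.04 ± 0.30 (adjusted p = 0.0936), and with the pool as a block the 95% interval was 0.61 to 1.46 (adjusted p = 0.0141). Ift27, a small GTPase of the train that links it to the BBSome, had 355, 207 and 224 in GFP-positive cells, against 289, 91.1 and 86.6 in GFP-negative cells. Pool 1 was again the brightest in both sorts, so the groups overlapped although GFP-positive was higher within each pool. Its fold change was 0.78 ± 0.40 (adjusted p = 0.285, and 0.0457 with the block), and 1.25 without GFP-negative array 1. In the block fit over all probe sets the same probe set did not pass (adjusted p = 0.0507). The name of that probe set marks it as one that may also pick up similar transcripts. The gene's other 2 probe sets had fold changes of 0.57 and 0.51.

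Ift46, a subunit of the IFT-B core, had 497.5, 689.5 and 733 in GFP-positive cells, against 391, 439.8 and 426 in GFP-negative cells, with no overlap. The fold change was 0.56 ± 0.21 (adjusted p = 0.17; 0.0624 with the block). Ift88, the core subunit long used to make mice without cilia, had an estimate below 0, with 160.1, 157 and 146 in GFP-positive cells, against 159, 329 and 407 in GFP-negative cells. The GFP-positive arrays were close to each other, and the GFP-negative array of pool 1 lay among them. Ift88 had a fold change of -0.74 ± 0.31 (adjusted p = 0.201, and 0.0894 with the block), with within-pool differences of 0.01, -0.93 and -1.30; it was -1.12 without pool 1 (adjusted p = 0.00106) and passed also without GFP-negative array 1.

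The other IFT-B genes were Ift172, Ift22, Traf3ip1, Ift52, Ift20, Ift74, Ift80 and Ift81. Ift172, a subunit at the train's periphery, is named here after its values were seen, for its groups do not overlap: 62 to 117.5 in GFP-positive and 52.6 to 56.8 in GFP-negative cells, a fold change of 0.52 ± 0.21 (adjusted p = 0.199). Ift74 and Ift81, which bind each other and tubulin, had -0.06 ± 0.37 and -0.38 ± 0.22, and Ift20, the subunit that also sits at the Golgi, had 0.05 ± 0.19 with a 95% interval of -0.39 to 0.49. The estimates of Ift22, Traf3ip1 and Ift52 were above 0 and that of Ift80 below it.

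The 3 IFT-A genes among the members had fold changes above 0. Other IFT-A genes, outside the symbol rule and named after their values were seen, went both ways. Wdr35 had 0.70 ± 0.21, while Wdr19 had -0.39 ± 0.32 and Ttc21b -0.52 ± 0.19. None of these passed in the fit without the block. Ift140, a scaffold subunit of IFT-A, had 327, 301 and 292 in GFP-positive cells, against 184, 218 and 202 in GFP-negative cells. The groups do not overlap and the spread within each is small, at SDs of 18 and 16.9. The fold change was 0.54 ± 0.19 (adjusted p = 0.138, 0.067 with the block and 0.036 without pool 1). Ift122, another core subunit, had 458, 405 and 415 in GFP-positive cells, against 409.5, 229 and 153 in GFP-negative cells. GFP-positive values were alike across pools, and GFP-negative array 1 overlapped them. Ift122 had 0.72 ± 0.31 (adjusted p = 0.216, and 0.0732 with the block), and its other probe set 0.49. Without pool 1 the value was 1.01 (adjusted p = 0.00351), and Ift122 passed also without GFP-negative array 1. Ift43 had a fold change of 0.30 ± 0.23. Its intensity on GFP-negative array 3, 341, was above every GFP-positive value, and the log2 difference within pool 3 was -0.21.

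BBSome genes had small estimates. The 9 tested genes ran from -0.32 to 0.35 with a median of 0.01, and the 95% interval of all 9 lay inside a 2-fold change. Bbs10, a chaperonin-like factor needed to assemble the BBSome, had 54.3, 48.9 and 55.3 in GFP-positive cells, against 69.5, 70.3 and 82.5 in GFP-negative cells. Its groups do not overlap, as for 12.2% of all genes in this direction, and the fold change was -0.32 ± 0.16 (adjusted p = 0.28). Ttc8, a BBSome subunit also known as BBS8, had 139, 154.6 and 144 in GFP-positive cells, against 153, 161.5 and 114 in GFP-negative cells, and the fold change was 0.03 ± 0.20 (95% interval -0.42 to 0.48). Its GFP-positive values lay within the range of its GFP-negative ones. The subunits Bbs1, Bbs2, Bbs4 and Bbs5 had estimates above 0 and Bbs7, Bbs9 and the chaperonin-like Bbs12 below it, except that Bbs9 was above 0 under quantile normalization (0.0031). Bbs1, Bbs2 and Bbs4, named after their values were seen, had GFP-positive arrays that all lay above the GFP-negative ones, with fold changes of 0.35 ± 0.22, 0.32 ± 0.17 and 0.27 ± 0.16. Intensities of Bbs2 were only 35 to 44.8 in GFP-positive and 16 to 30.6 in GFP-negative cells, close to the array medians.

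The transition zone held the gene with the largest difference and otherwise mostly small positive estimates. Cep290, a centrosomal protein that ties the transition zone's microtubules to its membrane, had 53.5, 27.5 and 11.2 on GFP-positive arrays 1, 2 and 3, against 371, 111.5 and 115 on the GFP-negative arrays. Every GFP-positive value was below every GFP-negative value, and the value on GFP-positive array 3 lay under that array's 40th percentile, 11.7. The fold change was -1.76 ± 0.42 (adjusted p = 0.0559); with the pool as a block it had a 95% interval of -2.25 to -1.27 (adjusted p = 0.00344). Within pools the log2 differences were -2.24, -1.27 and -1.76. Leaving out single arrays or pools moved the value between -2.01 and -1.27, and it passed without pool 1 and without GFP-negative array 1. It rests on 1 probe set, so no second measurement of Cep290 on the array bears on it.

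B9d1, a B9-domain protein of the same gate, had 193, 272 and 264 in GFP-positive cells, against 175, 136.5 and 132 in GFP-negative cells. The groups do not overlap, but within pool 1 the 2 arrays are close (a log2 difference of 0.12, beside 0.85 in both other pools). The fold change was 0.61 ± 0.21 (adjusted p = 0.144, and 0.0825 with the block); it passed without pool 1, at 0.85, and without GFP-negative array 1. Mks1, a further B9-domain protein, named after its values were seen, had 107.9, 93.4 and 99.8 in GFP-positive cells, against 64.2, 64.1 and 66.3 in GFP-negative cells. Its 6 arrays split cleanly, and the fold change was 0.45 ± 0.17 (adjusted p = 0.16).

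The 3 tectonic genes, whose products sit at the gate's membrane, all had positive estimates: 0.32 ± 0.19 for Tctn1, 0.57 ± 0.24 for Tctn2 and 0.37 ± 0.19 for Tctn3, each with the GFP-positive array higher in 3 of 3 pools. B9d2, which binds B9d1 and Mks1, had an estimate of 0.26 ± 0.18 and Ofd1, a protein of the centriole's outer end, 0.28 ± 0.42. The scaffold Cc2d2a (-0.20 ± 0.20), the membrane protein Tmem216 (-0.28 ± 0.36) and Ahi1, the jouberin protein (-0.33 ± 0.24), had estimates below 0. Of the 11 transition zone genes, 7 had a positive and 4 a negative fold change (median 0.28).

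Arl3 and Tulp3 carry cargo to the ciliary membrane. Arl3, a GTPase that releases lipid-modified proteins inside the cilium, had 2814, 3180.1 and 3272 in GFP-positive cells, against 3238, 2389 and 2328 in GFP-negative cells. GFP-negative array 1 lay within the GFP-positive range. The fold change was 0.23 ± 0.19 (adjusted p = 0.493), and 0.45 without pool 1 (adjusted p = 0.0115). Tulp3, which loads receptors onto IFT-A, had -0.14 ± 0.22.

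Some members differed more between pool 1 and the other pools than between the sorts. For 9 of the 42 (21.4%) both arrays of pool 1 lay outside the range of the other 4, as they did for 33.4% of all genes (14.3% above and 19.1% below). Ift27, Ift74, Traf3ip1, Kif3a, Bbs5 and Ofd1 were higher in pool 1 and Ift52, Bbs9 and Tmem216 lower, genes picked for that pattern. Ofd1 had 193 on GFP-positive array 1 and 154 on GFP-negative array 1, and 40.8 to 71.5 on the other 4. Tmem216 had 84.9 on GFP-positive array 1 and 95.6 on GFP-negative array 1, and 173 to 258 on the others, with a like pattern on its second probe set. For 14 of the 42 members the difference of pool 1 from the other pools was larger than the difference between the sorts, and for 28 it was not. This count was not made for all genes, so it is not a trait of the members. The median size of the pool 1 difference was 0.257 for members, beside 0.291 for all genes. That of the sort difference was 0.322 for members, beside 0.286 for all genes. Pool 1 is also the pool with the high 3′ over 5′ control ratios and the fewest cells, and the part of RNA quality in these values was not tested.

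**Figure D3:**
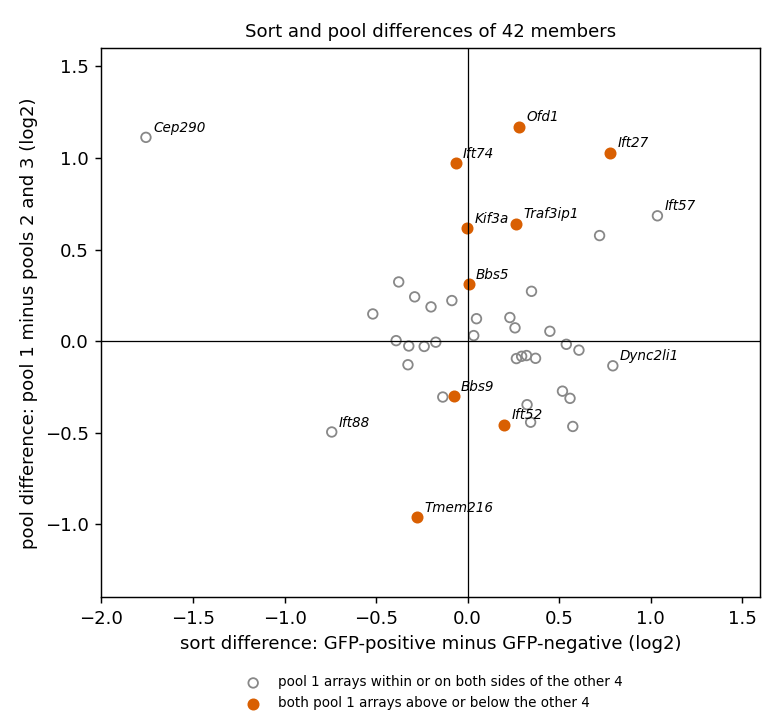
Each point is 1 of 42 members, with the sort difference (mean log2 of GFP-positive minus GFP-negative arrays) across and the pool difference (mean log2 of pool 1 minus that of pools 2 and 3) up. Filled points are the 9 genes with both pool 1 arrays above or below the other 4; Ofd1, Ift74 and Tmem216 lie farther from 0 up the page than across it.

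Among other genes of the cilium some passed the test. Of 124 genes in a wider list of cilium roles, 117 had a named probe set and 100 were tested. In GFP-positive cells 9 of the 100 were higher and 0 lower, beside 2.95% and 1.71% of all genes, and their median was 0.17, beside 0.01 for all genes. In the motile cilium programme 6 of 25 tested genes were higher. Of the 25, Cfap52, Pifo and Foxj1 entered the test only through GFP-positive arrays, so they had to differ, and among the other 22 genes 4 were higher and 0 lower. Cfap52, a protein inside motile axonemes, had 150, 87.3 and 101.5 in GFP-positive cells, against 8.9, 6.7 and 11.3 in GFP-negative cells, and Pifo, a regulator of cilium disassembly, had 112.8, 60 and 123.9 in GFP-positive cells, against 4.4, 5.4 and 9.9 in GFP-negative cells. Every GFP-negative value of both genes lay under the 40th percentile of its array, so their estimates, 1.80 and 1.73, depend on the offset: they ran from 1.26 to 2.34 for Cfap52 and from 1.18 to 2.31 for Pifo over the settings that keep all arrays. The 4 other genes that rose were Ak7, Nme5, Tekt1 and Rsph1, by 1.33 ± 0.31, 1.04 ± 0.21, 1.03 ± 0.17 and 0.88 ± 0.20. For Ak7, Tekt1 and Rsph1 the value on GFP-negative array 1 lay under that array's 40th percentile. Over the settings that keep all arrays the estimates ran from 0.96 to 1.68 for Ak7 and from 0.78 to 1.25 for Nme5. Those of Tekt1 ran from 0.69 to 1.39 and those of Rsph1 from 0.59 to 1.19. Among single arrays left out, Tekt1 passed without either array of pool 1, and Ak7, Nme5 and Rsph1 only without GFP-negative array 1. Without pool 1 the value of Ak7 was 0.83.

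In transport, 2 of 17 further IFT and dynein-2 genes were higher and 0 lower, beside the same 2.95% and 1.71% of all genes. Dynlrb2, a dynein light chain of the roadblock type, had 73, 45.1 and 82 in GFP-positive cells, against 10.6, 17.6 and 5.5 in GFP-negative cells. It rose by 1.18 ± 0.20 (adjusted p = 0.0184). Ttc30b, an IFT-B subunit gene, had 67, 55.3 and 75.4 in GFP-positive cells, against 31.7, 23.7 and 18.4 in GFP-negative cells, and rose by 0.79 ± 0.17 (adjusted p = 0.0424). Dynlrb2 passed without 3 of 6 arrays, and Ttc30b among single arrays only without GFP-negative array 1 (adjusted p = 0.0111). With the pool as a block 5 of the 17 were higher and 0 lower, beside 7.76% and 5.99% of all genes.

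Of 11 hedgehog genes that act at the cilium, Smo alone passed. Smo, the receptor that enters the cilium when the pathway is on, had 711, 1114 and 1056 in GFP-positive cells, against 425.5, 473 and 462 in GFP-negative cells. It rose by 1.01 ± 0.22 (adjusted p = 0.0453), and among single arrays left out it passed without either array of pool 1. Gli1, a target and effector of the pathway, had 0.49 ± 0.20 (adjusted p = 0.19).

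The remaining subgroups had 0 genes that passed in the fit without the block, beside 4.66% of all genes. At an unadjusted p under 0.05, 22.7% of all genes fell, and each count below is a smaller share of its subgroup. Among 9 further BBSome and ciliopathy genes, 1 had an unadjusted p under 0.05: Lztfl1, which regulates the BBSome's entry into cilia, had a fold change of -1.02 ± 0.29 (adjusted p = 0.0846, and 0.00995 with the block). With the gene's probe sets averaged, Lztfl1 had -0.35 (adjusted p = 0.299). Trim32 had 0.36 ± 0.20. Among 16 further transition zone genes 2 had an unadjusted p under 0.05, Tmem107 at 0.60 ± 0.23 (adjusted p = 0.169, and 0.042 with the block) and Unc119b at 0.45 ± 0.19. Among 22 basal body and ciliogenesis genes 4 did, 2 in each direction, led by Odf2, a protein of the centriole's appendages, at -0.54 ± 0.18 (adjusted p = 0.13) and the kinase Mak at 0.54 ± 0.18. Averaged over its probe sets Odf2 had -0.06 (adjusted p = 0.834), and with an offset of 64 Mak had 0.36. With the block 2 of the 22 were lower and 0 higher, Cep83 (adjusted p = 0.0336) and Pcm1 (adjusted p = 0.0354), named after their values were seen. With the block 14 genes of the wider list were higher and 3 lower, beside 7.76% and 5.99% of all genes.

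**Figure D4:**
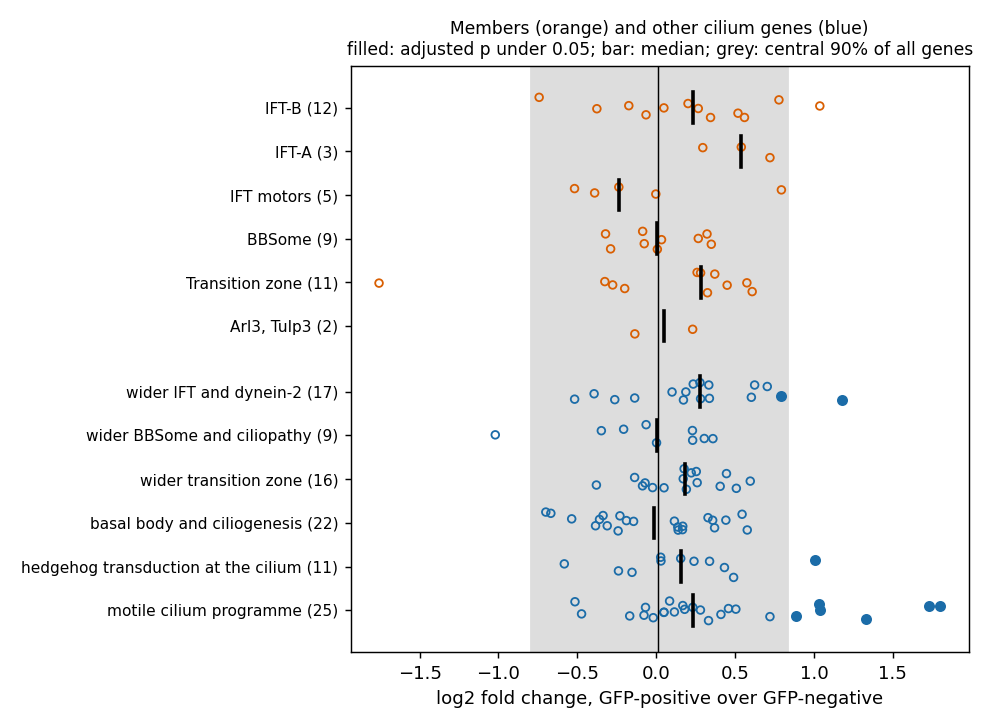
Log2 fold change of GFP-positive over GFP-negative for the members in 6 role groups (orange) and other cilium genes in 6 subgroups (blue), with the number tested in brackets. Filled points pass at an adjusted p under 0.05 in the fit without the pool, bars are group medians and the grey band holds the central 90% of all genes. Filled points appear in 3 blue subgroups and in no orange group.

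Fold changes of members with and without the promoter element overlapped widely. The 8 members with an X-box ran from -0.39 to 1.04 (median 0.29, 5 above 0), and the 30 tested members with a promoter in the table and no X-box from -1.76 to 0.78 (median 0.13, 18 above 0). The 19 with the left arm GTTGCC had a median of 0.32 and the 19 without it 0.03. In the motile cilium programme an X-box lay in 11 of 35 matched promoters (31.4%). Of the RFX genes, Rfx1, Rfx3, Rfx4 and Rfx5 were tested and 0 of the 4 passed, with or without the block. Rfx2 did not pass the filter. At an unadjusted p under 0.05 the count was also 0 in the fit without the block. Rfx1, named after its values were seen, was lower in GFP-positive cells in each pool, at -0.47 ± 0.26 (adjusted p = 0.0843 with the block). Without pool 1 it was -0.52 (adjusted p = 0.0354), where 37.4% of all genes passed.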

How the data were processed

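The 6 deposited columns hold array intensity on a linear scale, 1 value per probe set and array, made with GCOS 1.4, per the submitters' processing notes. Every array's trimmed mean is 150 (2% of probe sets trimmed at each end), so no further scaling was applied; the summary method is not given in the sources used here. Per the labels' protocols, RNA was extracted with a carrier and amplified through both cycles of a labeling kit. Control probe sets (64) were left out; 932 probe sets carried several symbols and 9160 were unnamed here. Detection calls were not used. Precision is limited by having 3 arrays a group. All 43 member symbols were unchanged in RefSeq (GRCm38.p6).

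Intensities were taken to log2(value + 32). Probe sets with 3 or more arrays reaching the 40th percentile of their own array entered the fit (27821 of them). Where several stood for a gene, the one of highest mean log2 value was taken, and 12628 genes were fitted together with limma 3.58.1 (R 4.3.3; lmFit, eBayes with a variance trend, group as the only term; Benjamini-Hochberg, threshold 0.05). The same fit was run over all kept probe sets. When arrays were left out, the kept probe sets and the one standing for each gene stayed as in the full fit. The fit was tested on simulated data. Per the labels, arrays with the same number come from 1 embryo pool and are pairs; once group means were subtracted, the arrays of a pair correlated at 0.542, 0.286 and 0.436 in pools 1, 2 and 3. Alternatives were the offset, normalization, filter, variance model, pool as a replicate block, averaging of the probe sets of a gene, threshold, and each array or pool left out.

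Members, lists, motifs and tests were chosen with earlier results of these data known. Named members are those that pass with or without the block, the 6 largest changes, and in each role group the gene with the highest mean intensity and the one with the smallest p. From the wider list, genes that pass and the 2 with the smallest p in each subgroup are named. Other members whose values are given were chosen after those values were seen. Motif counts and figures were made with Python 3.11.15.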

Additional observations from a re-analysis of the deposited data

How the results depend on the processing

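For the members, the count of genes called higher was 0 in the reported fit and 0 with offsets of 16 or 64, quantile normalization or no filter; it was 1 (Dync2li1) with a filter on the mean at the 60th percentile, 1 without a variance trend, 1 with a gene's probe sets averaged, 2 at an adjusted p under 0.1, and 3 with the replicate block. The count called lower was 1 at an adjusted p under 0.1, 1 with the replicate block and 0 in the other settings named. Leaving out arrays or pools gave 0 to 10 higher and 0 to 5 lower, all above 0 coming from leaving out an array of pool 1 or the pool. Of 60 member probe sets, 0 passed, 3 with the replicate block (beside 9.86% of all probe sets) and 2 at the looser threshold; leaving out arrays or pools gave 0 to 20. In the wider list 9 genes were higher, 5 with the filter on the mean, 4 with no filter and 14 with the replicate block, and 7 to 11 under the other settings; leaving out arrays or pools gave 0 to 23. Lower were 0, with 3 under the block and 1 at the looser threshold, and 0 to 11 with arrays or pools left out. Kif3a changed sign under quantile normalization (0.0031), and with arrays or pools left out ran from -0.19 to 0.22; Ttc8 ran from -0.091 to 0.11. Of the 42 members, 11 changed sign in some setting, none with an estimate beyond 0.28 in size: besides these, Bbs5, Bbs9, Bbs12, Ift20, Ift74, Ift80, Ofd1, Tmem216 and Tulp3 did when arrays or pools were left out. Averaging probe sets moved Lztfl1 to -0.35 and Odf2 to -0.06. The replicate block changed no call of a gene chosen by the naming rule beyond those given beside the results. With 3 arrays a group, 2-fold changes of single genes are often not resolved.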
